A study of Mus musculus with 661 samples.

Results

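The TNF superfamily joins small ligands, most of them made as membrane proteins that act in threes, to receptors that steer survival, death, inflammation and bone turnover. Members were chosen by symbol, as the genes named Tnfsf or Tnfrsf followed by a number. The rule finds 32 of 45771 nuclear genes, of which 12 carry ligand symbols and 20 receptor symbols. One of the 12, Tnfsf13os, is a transcript antisense to a ligand gene rather than a ligand. Tnf, Lta, Fas, Cd40 and other relatives with older symbols fall outside the rule and are described as a separate list near the end.

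Ligand binding clusters the receptors, and their tails recruit TRAF adaptors that switch on NF-κB, or death-domain adaptors that can activate caspase-8. In bone, the ligand RANKL (Tnfsf11) on stromal and osteoblast-lineage cells drives osteoclast formation through its receptor RANK (Tnfrsf11a). Osteoprotegerin (Tnfrsf11b) is a secreted decoy that binds RANKL and holds that signal back.

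The study sorted single non-blood cells from the bones of young and old C57BL/6 wild-type mice of both sexes and sequenced each cell as its own library. Young mice were about 2 months old (6 to 12 weeks) and old mice about 24 months (at least 18). After 8 cells were dropped, 653 of 661 cells were used. Their total counts ran from 58034 to 1503374 per cell, with a median of 423133.

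All cells were sorted as negative for Ter119 and CD45. From the flushed central marrow came MSC-L, stromal cells negative for CD31 and Sca-1 and positive for CD51, PDGFRα and LepR (53 young and 58 old cells), and SEC, sinusoidal endothelium with CD31, low Sca-1 and high CD105 (70 and 71). From the endosteum, as bone chips, came MSC-S, positive for Sca-1 and CD51 without CD31 (59 and 59). Osteoprogenitors (OPr, 44 and 21) and multipotent osteoprogenitors (mOPr, 26 and 26) lacked CD31, Sca-1 and LepR and carried CD51, and PDGFRα was present on mOPr and absent from OPr. AEC, arteriolar endothelium with CD31, high Sca-1 and low CD105, were also endosteal (84 and 82). The paper's legend gives a few young and a few old mice for these cells, but the labels name no mouse. Each population at each age thus counts as 1 sample, and no test between ages was possible.

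Broad lineage markers followed the sorts, while some of the finer lists did not. All 8 mesenchymal markers reached 10 CPM (counts scaled to 1000000 nuclear counts) in each mesenchymal group, and all 8 endothelial markers did so in AEC and SEC at both ages. The 4 MSC-L markers summed to 55894 CPM in Young MSC-L, with the chemokine gene Cxcl12 at 48750 CPM. The 3 SEC markers summed to 10802 CPM in Young SEC and 725 CPM in Young AEC. Markers of other cell types were present as well. In Young AEC the 4 pericyte markers summed to 1460 CPM, beside 1270 CPM for the 4 AEC markers. In Young SEC the 4 MSC-L markers summed to 6543 CPM, led by Cxcl12 at 5519 CPM. The 4 MSC-S markers summed to 1668 CPM in Young MSC-S and 2394 CPM in Young AEC. The 6 osteolineage markers summed to 3480 CPM in Young OPr, 5272 CPM in Young mOPr and 11374 CPM in Young MSC-L. Of the 8 mesenchymal markers, 7 reached 10 CPM in Old AEC and 7 in Old SEC, summed 317 and 373 CPM. No B or T cell marker reached 10 CPM in any group. The 8 dropped cells, all Old OPr, held all 15 hematopoietic markers at 10 CPM, with the CD45 gene Ptprc at 1534 CPM, and none of the 8 mesenchymal ones.

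Old OPr and Old mOPr are mixed populations by the study's own clusters. Cells in the 2 MSC-L-like clusters (M1 and M2) were 10 of 21 Old OPr cells and 14 of 26 Old mOPr cells, against 3 of 44 and 2 of 26 in young. The summed MSC-L markers were 5223 CPM in Young OPr and 29370 CPM in Old OPr, and 763 and 20622 CPM in Young and Old mOPr, with all 4 at 10 CPM in each. The 3 chondrogenic markers went the other way, from 27551 to 1151 CPM in OPr and from 2215 to 76.2 CPM in mOPr. The 4 pericyte markers summed to 703 CPM in Young OPr, led by Cspg4, and 2102 CPM in Old OPr, led by Acta2 at 1724 CPM, with 2 and 3 at 10 CPM. In mOPr they summed to 441 and 1534 CPM. Their part in the age differences of these 2 populations was not tested.

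Levels below are pooled over the cells of a group, in CPM of nuclear counts, and a cell is said to have a gene at 10 CPM or more. Brackets give exact 95% intervals, which cover counting error alone. Reads were amplified without molecular barcodes, so the true error is wider. Library numbers fall into stretches within each group, called runs here, in which some numbers are skipped, and into 3 broader ranges: mesenchymal cells lie in ranges 1 and 2, AEC in all 3 and SEC in range 3 alone. Runs are not named animals.

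Among young populations, members at 10 CPM or more numbered 6 in MSC-L, 6 in MSC-S, 8 in OPr, 8 in mOPr, 12 in AEC and 11 in SEC. Over all 6 young populations, 16 members reached that level in at least 1, namely 4 ligands and 12 receptors. Old groups bring the number to 18. Receptors outnumber ligands in each of the 6, as they do in the list itself, which has 20 receptor and 12 ligand symbols. The numbers by population are not ranked, because the share of all genes at 10 CPM is not set beside them. The populations also do not all lie in the same library ranges. The AEC number falls when only the range shared with SEC is used, and the MSC-S number rises at a lower cutoff.

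Among the ligands chosen by symbol, RANKL, Tnfsf11, was the most abundant in MSC-L. It was at 81.1 CPM in young cells [77.4 to 84.9] and 71.8 CPM in old [68.0 to 75.6]. It was uneven from cell to cell: 18 of 53 Young MSC-L had it, or 33.96% of cells [21.5 to 48.3], and 35.8% after every cell was thinned to 100000 counts. Old MSC-L had it in 36.2% of cells, or 41.1% when thinned, which left out 2 old cells with too few counts. Young mOPr reached 62.9 CPM of Tnfsf11, but 1 cell of 26 held 89.1% of those counts. Both MSC-S groups had almost none of it, at 0.261 and 0.357 CPM in young and old.

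TRAIL, Tnfsf10, a ligand that can trigger apoptosis through DR5, was an endothelial transcript. Young AEC had 105 CPM [102 to 109] and Young SEC 67.3 CPM [63.9 to 70.8], while the highest mesenchymal group, Old mOPr, had 3.28 CPM. Within range 3, the only one with both endothelial types, Tnfsf10 was at 129 CPM in Young AEC and 67.3 CPM in Young SEC, but at 39.9 and 55.8 CPM in the old. The order of the 2 endothelial types thus differs between the ages inside that range, where AEC has 1 run of each age.

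CD137 ligand, Tnfsf9, which costimulates T cells, was spread over sorts. Young MSC-S had 99.4 CPM of it, with 48.8% of the counts in 1 cell, and Young AEC 73.8 CPM, with 64.5% in 1 cell. No count of Tnfsf9 was found in Young SEC, and in Old SEC 93.1% of 612 counts came from 1 cell. Old AEC had the most, 105.8 CPM, in 20 of 82 cells, with 45.9% in 1 cell.

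TWEAK, Tnfsf12, which acts through Fn14 in tissue repair, was the most even ligand. Young groups ran from 4.64 CPM in OPr to 14.8 CPM in MSC-L, and Young MSC-L had it in 47.2% of cells, unthinned and thinned alike. BAFF, Tnfsf13b, a B cell survival factor, was near 0 in endothelium and reached 10 CPM in 2 old groups, 11.2 CPM in Old MSC-L and 16.5 CPM in Old OPr. In each of those, a single cell held 59.8% and 76.98% of the counts.

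The receptor of TNF that most cell types carry, Tnfrsf1a (TNFR1), was the most widespread member. It was in 70 of 70 Young SEC and 51 of 53 Young MSC-L. Among young groups its pooled level was lowest in OPr, at 125 CPM in 32 of 44 cells. Its share of cells was lowest in Young mOPr, at 18 of 26. Young SEC had 623 CPM [613 to 634]. Its runs were at 734, 588 and 543 CPM in Young SEC and 549, 368 and 607 CPM in Old SEC. The ages overlap. On a scale of CPM per kilobase of exon, Tnfrsf1a led in Young SEC (241) and Young MSC-L (162), ahead of Tnfrsf26 (20.7) in the first and Tnfrsf19 (90.7) in the second.

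The inducible TNF receptor, Tnfrsf1b (TNFR2), lacks a death domain and signals through TRAF adaptors. Among young groups, AEC had the most, at 139.6 CPM [136 to 144], and mOPr the least, at 30.6 CPM [27.8 to 33.6]. Its cells overlap with those of the widespread Tnfrsf1a: of 157 mesenchymal cells with Tnfrsf1b, 141 had both, and Tnfrsf1a was in 287 of 346 mesenchymal cells. In endothelium, 117 of 134 cells with Tnfrsf1b had both, and Tnfrsf1a was in 267 of 307.

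TROY, Tnfrsf19, an orphan receptor known from hair follicles, stem cells and neurons, was next to Tnfrsf1a in MSC-L by the same scale. Young MSC-L had 429.8 CPM [421 to 438] in 44 of 53 cells, Young OPr 55.2 CPM and Young AEC 0.316 CPM. Young SEC had 43.5 CPM, but cells of SEC-like cluster E7 were at 11.8 CPM and those of E1, a cluster that the study calls doublets, at 321 CPM. Of the 14 cells of E1, 9 are Young SEC and 4 Old SEC. Tnfrsf19 is also 1 of the guide genes by which the study's clusters were built, as are Tnfrsf12a and Tnfrsf10b, so their levels by cluster are not independent of the clusters.

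Fn14, Tnfrsf12a, the TWEAK receptor, was low in MSC-L, the young group with the most of its ligand. MSC-S, OPr and mOPr had 162, 167 and 107 CPM in young cells, against 3.90 CPM in Young MSC-L. Of 346 mesenchymal cells, 103 had Tnfsf12, 126 had Tnfrsf12a and 32 had both. DR6, Tnfrsf21, a death-domain receptor, was at 167 CPM in Young OPr, 104 CPM in Young MSC-L and 10.8 CPM in Young AEC.

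DR5, Tnfrsf10b, the mouse death receptor for TRAIL, was in endothelium together with its ligand. Young AEC and SEC had 42.9 and 32.01 CPM, and 82 of 307 endothelial cells had both Tnfsf10 (153 cells) and Tnfrsf10b (157 cells). Each gene alone was common in these cells, and overlap beyond that was not tested. Cluster E6 was highest for each gene, at 171 CPM of Tnfsf10 and 109 CPM of Tnfrsf10b over 24 cells. In the mesenchyme, 4 of 346 cells had Tnfsf10 and 28 had Tnfrsf10b, too few for the absence of cells with both to be read, and Young OPr led there at 18.9 CPM of Tnfrsf10b.

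Tnfrsf22 and Tnfrsf23 are decoys for TRAIL, and Tnfrsf26 is a relative of unclear ligand. All 3 lie side by side on chromosome 7, from base 143607659 to 143685872, on the minus strand. Tnfrsf26 was endothelial, at 66.7 CPM in Young SEC and 33.5 CPM in Young AEC, and 2.10 CPM in its highest mesenchymal group, Old MSC-L. In range 3 alone it was 66.7 CPM in Young SEC and 23.96 CPM in Young AEC. Tnfrsf23 also reached mesenchyme, with 12.4 CPM in Young OPr beside 22.2 CPM in Young SEC. Tnfrsf22 was at 22.1 CPM in Young AEC, 22.3 CPM in Old AEC, 14.4 CPM in Young SEC and 7.04 CPM in Old SEC. Of 307 endothelial cells, 57 had Tnfrsf22, 45 had Tnfrsf23 and 77 had Tnfrsf26. Tnfrsf22 and Tnfrsf23 were together in 10 cells, Tnfrsf22 and Tnfrsf26 in 19, and Tnfrsf23 and Tnfrsf26 in 19. Tnfrsf22 and Tnfrsf23 share 719 stretches of 50 bases, 17.3% of those in Tnfrsf22 and 18.01% in Tnfrsf23, so some of their reads cannot be told apart.

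**Figure D1:**
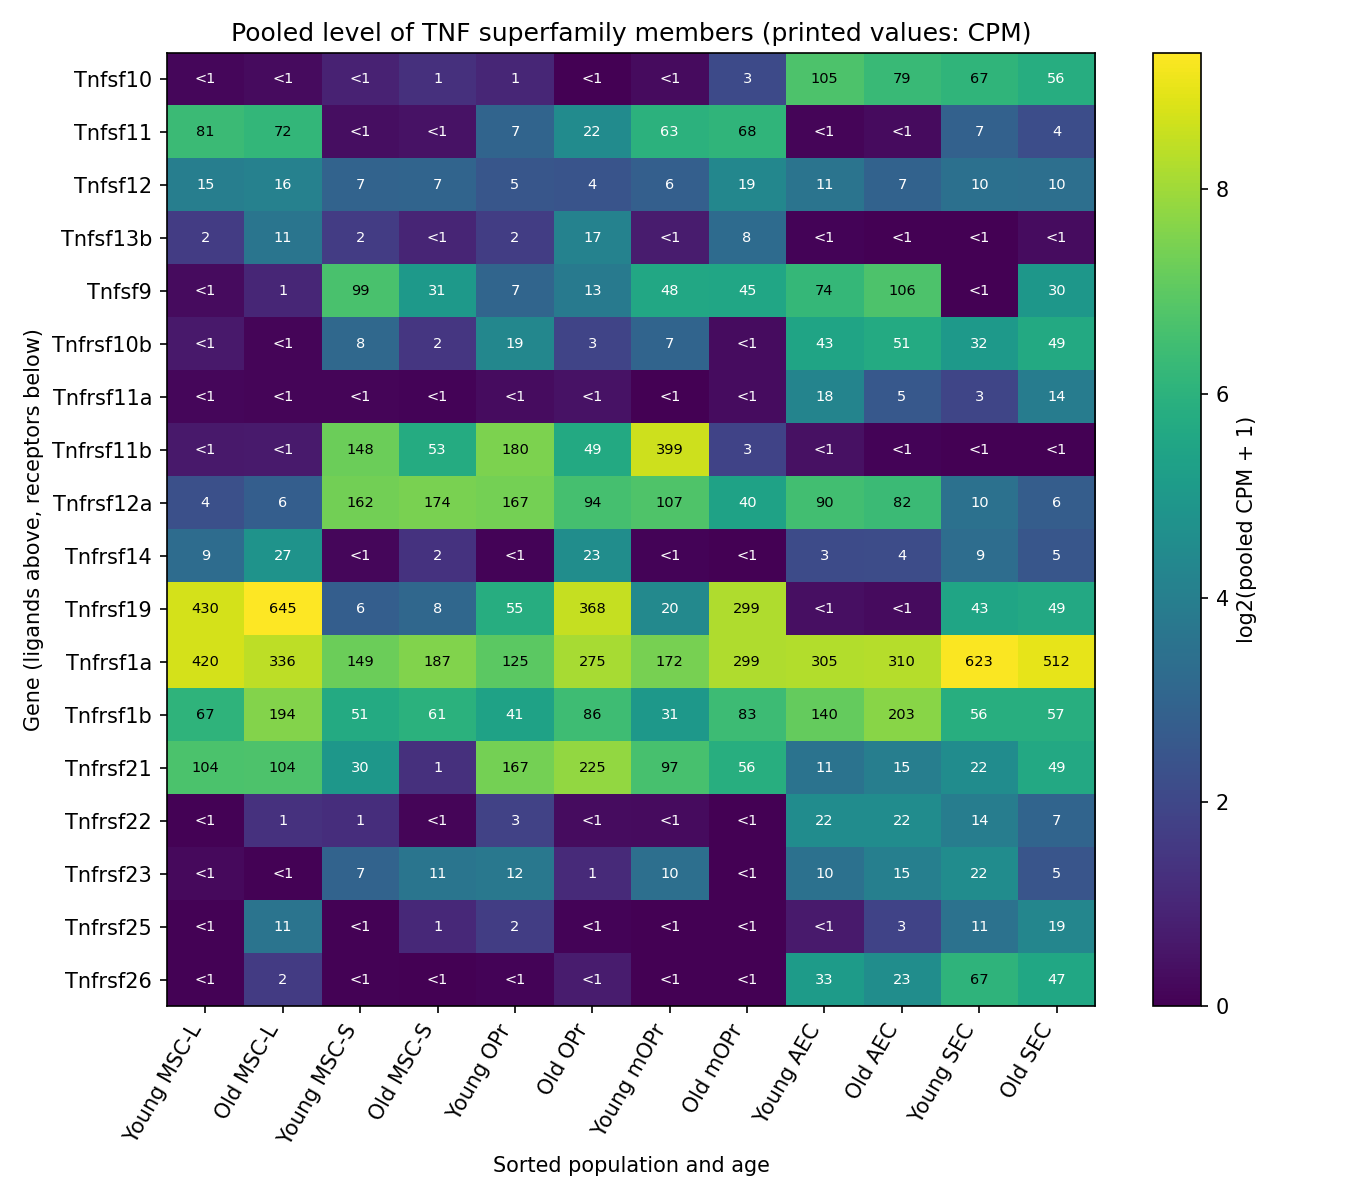
Pooled levels of the members in each population at each age, in CPM. Endothelial and mesenchymal populations share Tnfrsf1a and Tnfrsf1b, whereas Tnfsf10 and Tnfrsf26 are mainly endothelial and Tnfrsf11b is mainly mesenchymal.

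Osteoprotegerin and RANKL came mostly from different sorts. Young mOPr had 399 CPM of Tnfrsf11b, Young OPr 180.1 CPM and Young MSC-S 148 CPM, while Young MSC-L, the source of most RANKL, had 0.570 CPM of the decoy. Among 346 mesenchymal cells, 54 had Tnfsf11, 67 had Tnfrsf11b and 1, an Old OPr cell, had both. Tnfrsf19 was in 44 of the 54 cells with RANKL. Tnfsf11 and Tnfrsf19 are both high in MSC-L, where the decoy is near 0, and the part of the sorts in these overlaps was not tested. Where the decoy was common, cells with RANKL were few, 2 of 44 in Young OPr and 2 of 26 in Young mOPr.

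This split is also seen across the study's clusters. Tnfsf11 was at 74.1 CPM in M1 (86 cells) and 77.8 CPM in M2 (50 cells), the MSC-L-like clusters, where Tnfrsf11b was at 0.635 and 11.3 CPM. Tnfrsf11b was highest in M15, an MSC-S-like cluster of 17 cells, at 754 CPM, then in M3 (317 CPM) and M4 (271 CPM), which are OPr-like. Tnfsf11 had no count in M15 or M4. M12, an MSC-S-like cluster of 27 cells, was at 51.1 CPM of Tnfsf11, but 1 cell held 99.6% of those counts. RANK itself, Tnfrsf11a, was endothelial where found: 17.8 CPM in Young AEC, with 42.97% in 1 cell, and 0 to 0.239 CPM in young mesenchyme.

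**Figure D2:**
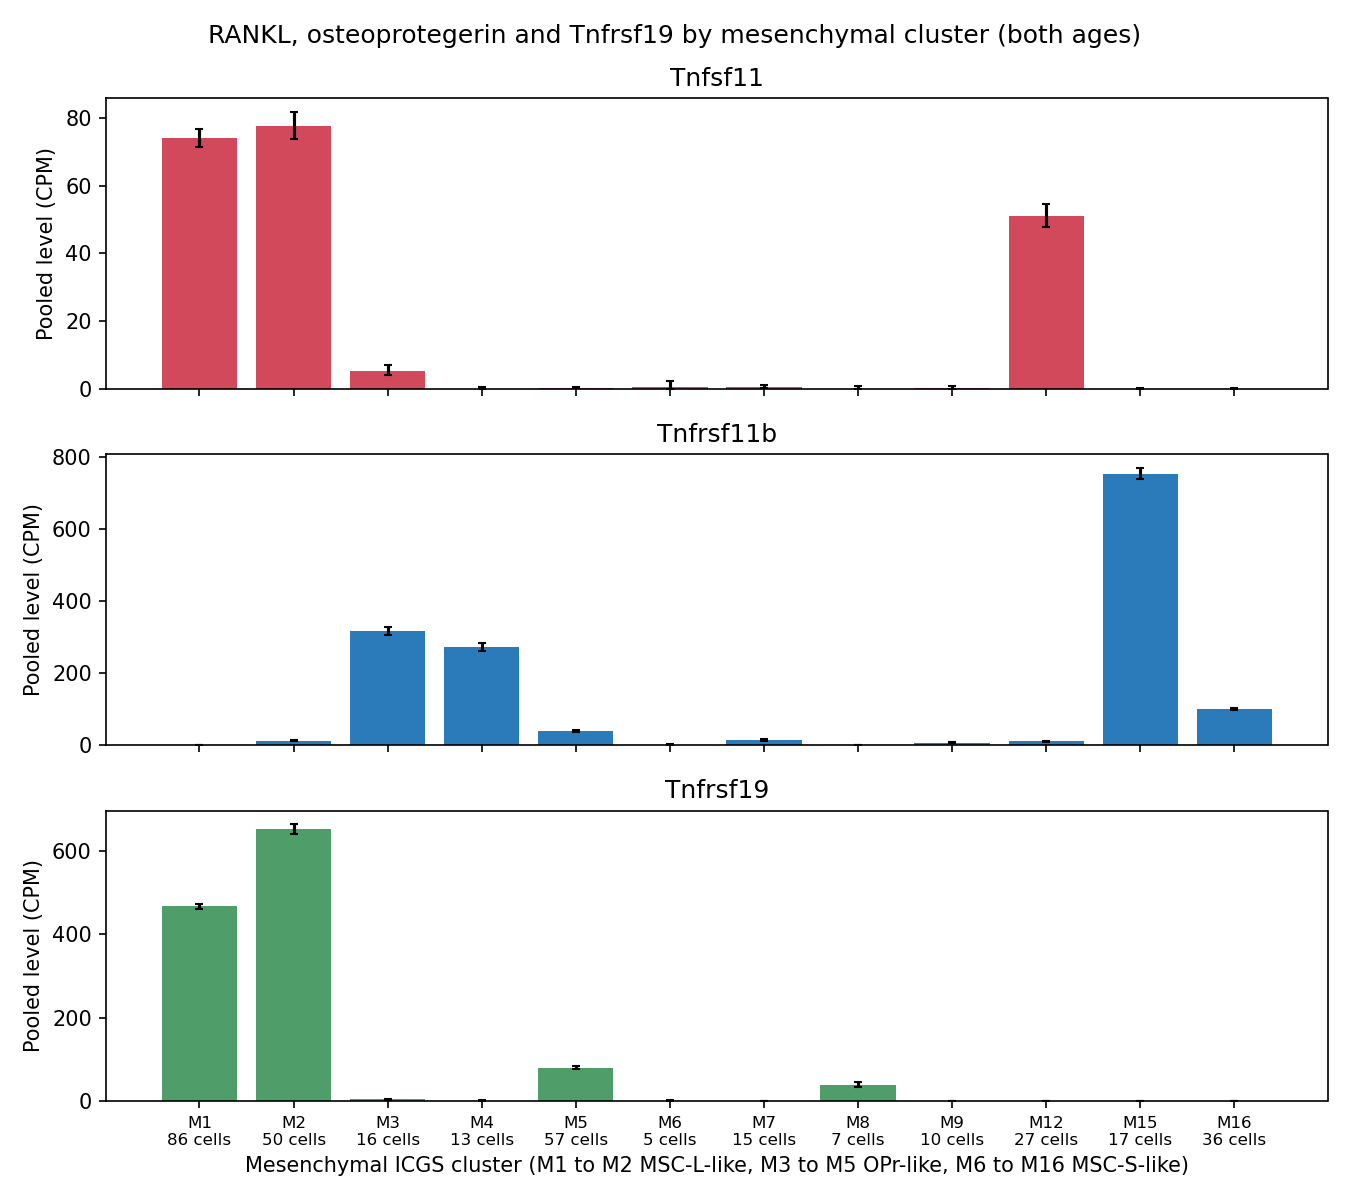
Levels of Tnfsf11 (RANKL), Tnfrsf11b (osteoprotegerin) and Tnfrsf19 in the study's mesenchymal clusters, both ages together. Clusters high for RANKL are low for the decoy. Tnfrsf19 is a guide gene of the clusters, so its levels here are not independent of them.

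The remaining members were scarce. Tnfrsf17 and Tnfrsf8, receptors of plasma cells and activated lymphocytes, had no count in any cell used, and Tnfsf4 had 1 count. Others peaked at 0.172 CPM (Tnfsf18), 0.547 CPM (Tnfsf8), 0.613 CPM (Tnfsf14), 0.936 CPM (Tnfrsf13c), 1.54 CPM (Tnfrsf13b), 2.95 CPM (Tnfsf13), 3.23 CPM (Tnfsf15), 4.65 CPM (Tnfrsf18) and 5.05 CPM (Tnfsf13os). Most of these act between lymphocytes and antigen-presenting cells. DR3, Tnfrsf25, was at 10.6 CPM in Young SEC and 18.7 CPM in Old SEC. In Old MSC-L it reached 11.0 CPM, with 84.1% of counts in 1 cell.

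Some counts are ambiguous, because genes overlap and counting ignored the strand. On the same strand, Tnfsf12 shares 48.3% of its exon bases, and Tnfsf13 60.05%, with the joint transcript Tnfsfm13, which has its own entry in the table. On the opposite strand, Tnfsf13os overlaps Tnfsf13 in 19.9% of its bases. Gm16008 covers 27.2% of Tnfrsf18 exons, and Gm11110 covers 14.9% of those of Tnfsf9. By position, 9 of the 32 members lie on chromosome 4, among them Tnfrsf1b and Tnfrsf14.

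A member was called highest in a young population when it exceeded the next by at least 2 times with 1 CPM added to both, and the ratios in this paragraph carry that CPM. Of 22 members with enough counts, 5 were called. AEC held 2 of these (4.31% of all 17348 genes tested were called there), MSC-L 1 (5.95%), mOPr 1 (2.3%), SEC 1 (3.6%), and MSC-S and OPr none (2.13% and 3.57%). Tnfrsf19 in MSC-L stood 7.67 times above OPr, Tnfrsf11a in AEC 4.90 times above SEC and Tnfrsf25 in SEC 3.56 times above OPr. Tnfrsf11b in mOPr was 2.21 times OPr, and Tnfrsf1b in AEC 2.08 times MSC-L. Tnfrsf19 and Tnfrsf25 were called under all 6 alternatives. Tnfrsf11b was not called with the mean of CPM over cells, with thinning or by identity group, and Tnfrsf1b was not with the mean of CPM. The alternatives called 4 to 7 members. Tnfrsf26 in SEC, at 1.96 times AEC, was called in 4 of the 6, and Tnfrsf9, Tnfrsf21, Tnfrsf22, Tnfrsf23, Tnfsf9, Tnfsf11 and Tnfsf13os in 1 each. The AEC calls do not hold within range 3, where Young AEC had 64.3 CPM of Tnfrsf1b and 2.16 CPM of Tnfrsf11a, against 56.2 and 2.83 CPM in Young SEC. Against stroma in the shared ranges, Young AEC had 120 and 177 CPM of Tnfrsf1b in ranges 1 and 2, and Young MSC-L 104 and 45.6 CPM.

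Age differences were called by size. The log2 ratio of old over young, with 1 CPM added to each, had to reach 1 in size, and every run of at least 5 cells of one age had to lie above every such run of the other. A gene entered with at least 100 counts over both ages in at least 5 cells. The share of all genes called by the same rule stands beside each first count, and members near that share are described singly, with nothing claimed for the list.

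In MSC-L, both TNFR2 and HVEM rose with age. Tnfrsf1b ran at 104, 46.1 and 45.3 CPM in the 3 young runs and 123, 254 and 206 CPM in the old. Every old run lies above every young run, narrowly for the first of each. The pooled level rose 2.92-fold, from 66.6 to 194 CPM (log2 1.53, with an interval of 1.46 to 1.63 for the ratio without the added CPM). Range 1 alone gives a log2 of 0.24, from 104 to 123 CPM, and range 2 alone 2.33, from 45.6 to 233 CPM. The size of the Tnfrsf1b difference thus lies mainly in range 2. The clusters shifted too, with M1 at 39 of 53 young and 33 of 58 old cells and M2 at 12 and 23. Within M1, Tnfrsf1b was at 78.1 CPM in Young and 208 CPM in Old MSC-L, and within M2 at 31.5 and 179 CPM.

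HVEM, Tnfrsf14, is a receptor for LIGHT that also engages the lymphocyte inhibitor BTLA. Its runs in MSC-L were at 13.1, 0.691 and 10.2 CPM in young and 18.5, 17.4 and 50.9 CPM in old, again without overlap. It rose 3.07-fold, from 8.81 to 27.1 CPM (log2 1.52). Range 1 alone gives 0.47, and without old run 3 the log2 is 0.95, so the call ends in both. Old MSC-L also had more megakaryocyte and erythroid transcripts: 6 of 6 markers at 10 CPM, summed 922.5 CPM and led by Ppbp at 580.2 CPM, against 0 of 6 and 26.5 CPM in young, with none at 0 in either. Without the 5 old and 1 young cells that had at least 3 of them, a choice made after seeing the data, Tnfrsf1b gave a log2 of 1.58 and was still called, and Tnfrsf14 gave 1.63 but its runs overlapped. The 15 hematopoietic markers summed to 49.5 CPM in Young MSC-L, led by Cybb at 23.6 CPM, with 2 at 10 CPM and 4 at 0. In Old MSC-L they summed to 139 CPM, led by Lyz2 at 35.2 CPM, with 4 at 10 CPM and none at 0. Their part in the 2 rises was not tested.

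These 2 were the members called higher out of 10 tested in MSC-L, where 4.52% of 13143 genes were, and no member was called lower (3.53% of genes). The median log2 of the 10 was 0.32, against 0.01 for all genes tested. RANKL, Tnfsf11, was not called: its runs were at 99.3, 84.3 and 62.01 CPM in young and 48.6, 123 and 32.6 CPM in old. The ages overlap. Its log2 was -1.02 in range 1 alone, where it is called lower, and 0.25 in range 2 alone. TROY, Tnfrsf19, ran at 386, 512 and 416 CPM in young and 693, 739 and 461 CPM in old, which overlap in 1 run of each age.

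OPr had 4 members called higher and 4 lower of 13 tested, in a population where 12.4% of 12980 genes were called higher and 9.72% lower. It had 3 young and 2 old runs to compare and mOPr 2 and 2, against 3 and 3 in MSC-L and 4 and 4 in AEC. With fewer runs the rule is easier to pass, so populations are not ranked by their calls. The median of the 13 was 0.43 and that of all genes tested 0.22. Scaling by size factors moves log2 ratios by -0.29 in OPr and -0.13 in mOPr before 1 CPM is added, and by less after it for genes at low levels. The calls of Tnfrsf1a (0.85) and Tnfrsf1b (0.77) in OPr end under that scaling.

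Osteoprotegerin fell in both osteoprogenitor sorts. In OPr, Tnfrsf11b ran at 108, 291 and 149.6 CPM in young and 32.9, 60.7 and 57.9 CPM in old, and it was 3.64-fold lower in old (log2 -1.84). In mOPr its runs were at 104, 962 and 526 CPM in young and 0 and 4.28 CPM in old. Young mOPr run 2, the middle value here and in the mOPr runs below, has 3 cells and was not among the runs compared. The pooled mOPr level was 151-fold lower in old (log2 -6.78). No old run reaches any young run in either sort. Cells with the decoy were 56.8% of Young OPr (60.5% thinned) and 19.05% of Old OPr (21.1% thinned). In mOPr, 10 of 26 young cells had it and 1 of 26 old cells.

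The cluster make-up of these sorts moved at the same time. Among OPr-like cells alone (clusters M3 to M5), Tnfrsf11b was at 221 CPM in 36 Young OPr cells and 91.0 CPM in 11 Old OPr cells. The clusters inside this class also differ, since M3, the highest of them for Tnfrsf11b, holds 15 of the 36 young and 1 of the 11 old cells, and M5 holds 14 and 7. MSC-L-like cells of Old OPr had 21.8 CPM. In mOPr, the young cells that carried most of it were MSC-S-like, 16 cells at 560 CPM, and no Old mOPr cell was of that kind. OPr-like mOPr cells were at 121 CPM in 8 young and 5.41 CPM in 12 old cells.

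TROY, the MSC-L receptor, rose in both sorts. Tnfrsf19 runs in OPr were at 101, 7.74 and 37.99 CPM in young and 397 and 455 CPM in old, with old run 3, of 3 cells, at 0. In mOPr they were at 38.4, 0 and 4.29 CPM in young and 204 and 357 CPM in old. Apart from that run of 3 cells, the old lie far above the young. The rise was 6.66-fold in OPr (log2 2.71) and 15.0-fold in mOPr (log2 3.84). Old mOPr cells in M1 and M2 had 544 CPM and those in M3 to M5 had 25.9 CPM, less than the 56.3 CPM of Young mOPr cells in M3 to M5. Restricted to OPr-like cells, the mOPr log2 of Tnfrsf19 turns to -1.09, while that of OPr is 3.47, from 16.97 to 199 CPM. Tnfrsf19 is a guide gene of the clusters, so these values by cluster are not independent of how the cells were assigned.

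TNFR2 behaved alike in the pooled sorts. Tnfrsf1b in OPr ran at 81.05, 13.9 and 2.63 CPM in young and 98.3, 101 and 0 CPM in old, the last in the run of 3 cells. In mOPr it ran at 25.8, 18.1 and 43.1 CPM in young and 50.8 and 104 CPM in old. The old runs of at least 5 cells lie above the young, by little for the closest. It rose 2.10-fold in OPr (log2 1.05) and 2.73-fold in mOPr (log2 1.42). The OPr log2 of Tnfrsf1b is 0.28 in range 1 alone and 2.90 in range 2 alone, and leaving out 1 run takes it from 0.64 to 3.04, with the call ended by 4 of the 6 runs. The mOPr log2 is 0.95 in range 1 alone, 0.71 without old run 2 and 0.84 without the top cells, and the call ends in each. By identity, Old mOPr had 153 CPM in MSC-L-like and 6.26 CPM in OPr-like cells, and the log2 among OPr-like mOPr cells is -2.49. Among OPr-like OPr cells it is 2.03, from 7.26 to 32.7 CPM. Keeping the 8 dropped cells brings the log2 of Tnfrsf1b in OPr to 3.65.

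HVEM, nearly absent from Young OPr, was present in Old OPr. Tnfrsf14 ran at 0, 0 and 0.309 CPM in young and 16.5, 18.2 and 55.3 CPM in old. Young OPr held 2 counts in all and Old OPr 366, for a log2 of 4.48 (6.52 to 11.44 is the interval of the ratio without the added CPM). Of 21 Old OPr cells, 3 had it, and its level was 24.9 CPM in MSC-L-like and 19.8 CPM in OPr-like cells. Of 6 megakaryocyte and erythroid markers, 3 reached 10 CPM in Old OPr, summed 212 CPM and led by Hbb-bs at 128 CPM, against 0 and 7.19 CPM in Young OPr, where 3 were at 0. Without the 1 Old OPr cell that had at least 3 of them, also a choice made after seeing the data, the log2 of Tnfrsf14 is 3.97 and the call ends. TNFR1 rose 2.20-fold in OPr: Tnfrsf1a ran at 139, 115 and 111 CPM in young and 359, 259 and 95.8 CPM in old, the last again the run of 3 cells. Among OPr-like cells its log2 turns to -0.57, from 101 to 67.8 CPM.

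The TRAIL receptor DR5 and 1 of its decoys, Tnfrsf23, fell in OPr, where the other decoy, Tnfrsf22, had too few counts to be tested. Tnfrsf10b (DR5) ran at 14.6, 25.4 and 17.4 CPM in young and 0.160, 5.61 and 0.871 CPM in old, a 6.74-fold fall (log2 -2.39). Tnfrsf23 ran at 3.52, 26.9 and 7.41 CPM in young and 0, 2.40 and 0.436 CPM in old, and was 10.5-fold lower in old (log2 -2.62). With the 8 dropped cells kept, that log2 is -0.45 and the call ends. Without young run 2, the young level of Tnfrsf23 falls from 12.4 to 4.83 CPM and the log2 is -1.42, still called. CD137, Tnfrsf9, a T cell costimulator, ran at 1.88, 18.6 and 1.08 CPM in young and 0, 0.667 and 0 CPM in old, which leaves 23.8-fold less in old (log2 -2.68). Without young run 2, the young level of Tnfrsf9 falls from 7.43 to 1.61 CPM, the log2 is -0.99 and the call ends. For all 3 the old runs lie under the young ones, though for Tnfrsf9 by less than 1 CPM at the closest. Over the 17 alternative settings for OPr, the call held in 17 for Tnfrsf11b and for Tnfrsf19, 16 for Tnfrsf10b and 13 for Tnfrsf9. It held in 12 for Tnfrsf1a and for Tnfrsf23, 9 for Tnfrsf1b and 7 for Tnfrsf14. The setting that leaves out cells with at least 7 hematopoietic markers changed no OPr cell, so no call could end there. Within range 1 or 2 alone, where the old have 1 run of at least 5 cells, the call is by fold alone. Where its call was lost, Tnfrsf14 stayed far apart, with a log2 of 3.84 to 7.09 over all 17.

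In mOPr, 3 members were called higher and 3 lower of 11 tested, where 15.4% of 11237 genes were called higher and 12.6% lower. Their median was -0.07, beside 0.11 for all genes. Tnfrsf10b ran at 6.60, 13.3 and 4.48 CPM in young and 0 and 0.389 CPM in old. It fell to 3 counts (log2 -2.69, or -7.16 to -3.28 as the interval of the ratio without the added CPM). Among OPr-like mOPr cells it had 0 counts in young and 3 in old, at the floor, from which no direction is read. Tnfrsf23 ran at 0.861, 12.5 and 20.5 CPM in young and had no count in old. It was thus at least 40.5-fold lower, against a floor of 3 counts over the group. The young level, 9.74 CPM, falls to 4.36 CPM without the top cell and 3.91 CPM without young run 3. The bound shrinks with it, and the call ends in both. TWEAK, Tnfsf12, ran at 10.2, 0.806 and 3.12 CPM in young and 11.7 and 23.2 CPM in old. The closest runs differ by little, and the pooled level rose 3.08-fold (log2 1.48). In range 1 alone that log2 is 0.19. Over the 15 alternative settings for mOPr that keep runs of both ages, the call held in 15 for Tnfrsf11b and for Tnfrsf19. It held in 12 for Tnfrsf1b and for Tnfsf12, 9 for Tnfrsf23 and 8 for Tnfrsf10b. Some of these settings could not end a call. Keeping the Il1b cells, and leaving out cells by hematopoietic or by megakaryocyte and erythroid markers, changed no mOPr cell. Within range 1 or 2 alone, where each age has 1 run, the call is by fold alone. The log2 of Tnfrsf10b ran from -4.38 to -2.21 over these 15.

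In MSC-S, DR6 was the 1 member called lower of 12 tested (2.57% of 13381 genes), and none was called higher (2.1%). Tnfrsf21 ran at 7.14, 58.4 and 23.4 CPM in young and 1.22, 3.03 and 0.0660 CPM in old. All old runs lie under all young runs, and the pooled level fell 20.7-fold (log2 -3.65). In range 1 alone the log2 is -1.88, from 87 and 12 counts, and with fewer than 100 it is not called. Cells with it were few, 7 of 59 young and 3 of 59 old. Among MSC-S-like cells of all mesenchymal sorts it was at 102 CPM in young and 1.20 CPM in old, but the clusters behind these values differ: M15, at 363 CPM of Tnfrsf21, holds 17 young cells and 0 old, and M9 holds 10 old and 0 young. The 3 chondrogenic markers summed to 527 CPM in Young and 113 CPM in Old MSC-S, all 3 at 10 CPM in both. The 6 osteolineage markers summed to 1028 and 189 CPM, with 4 at 10 CPM in each and none at 0. Their part in the Tnfrsf21 difference was not tested. The median of the 12 members was 0.07 and that of all genes -0.06.

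Osteoprotegerin in MSC-S was not called, since its runs overlap across ranges: 43.1, 269.8 and 135 CPM in young and 25.2, 90.7 and 36.4 CPM in old. Within a range the old level of Tnfrsf11b is the lower, at 43.1 and 25.2 CPM in range 1 (log2 -0.75) and 206 and 62.7 CPM in range 2 (log2 -1.70). It is called lower in range 2 alone, without old run 2 and without young run 1. Pooled levels were 148 and 53.2 CPM. With MSC-S-like cells taken from every sort, Tnfrsf11b was at 222.5 CPM in young and 55.7 CPM in old. OPr-like cells had 204 and 42.4 CPM. Both classes mix clusters in unequal parts at the 2 ages, and M15, the cluster highest for Tnfrsf11b, has no old cell. CD137 ligand, Tnfsf9, was at 99.4 and 31.1 CPM in Young and Old MSC-S, and its young runs spread from 1.54 to 257 CPM.

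In AEC no member of 15 tested was called in either direction, where 0.89% of 14042 genes were called higher and 1.11% lower. Tnfrsf1b ran at 120, 136, 220.5 and 64.3 CPM in young and 192, 130.4, 310.2 and 139 CPM in old. Tnfsf10 ran at 83.4, 99.1, 119.6 and 129 CPM in young and 41.9, 129, 90.7 and 39.9 CPM in old. Runs of the 2 ages overlap in both genes when all ranges are compared. Within ranges 1, 2 and 3, the log2 of Tnfrsf1b was 0.67, 0.37 and 1.10, and that of Tnfsf10 was -0.98, -0.01 and -1.67. Both pass the fold of 2 in range 3, where each age has 1 run. The median log2 of the 15 was 0.02 and that of all genes -0.03.

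In SEC, 1 member of 18 was called higher (4.51% of 12982 genes) and 1 lower (2.59%). The decoy Tnfrsf23 ran at 11.3, 16.5 and 40.1 CPM in young and 0.814, 9.97 and 3.37 CPM in old. The old runs lie under the young, and it was 4.89-fold lower in old (log2 -2.07). OX40, Tnfrsf4, a costimulator of T cells, ran at 0.135, 0.262 and 0.291 CPM in young and 1.90, 1.07 and 13.3 CPM in old. It rose 23.7-fold (log2 2.38), but 79.5% of its old counts sat in 1 cell, and without the top cell of each age the log2 is 0.84 and the call ends. The call also ends without old run 3, although the log2 there is 1.03. In SEC-like cells alone neither gene is called, at a log2 of -1.98 for Tnfrsf23 and 2.84 for Tnfrsf4.

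Other cell markers also differed between the SEC ages. Of 15 hematopoietic markers, 6 reached 10 CPM in Old SEC, summed 382 CPM and led by Lyz2 at 89.0 CPM, against 1 and 91.8 CPM in Young SEC, with 1 and 0 of them at 0. The 6 megakaryocyte and erythroid markers summed to 468 CPM in old, led by Itga2b, and 59.5 CPM in young, with 3 and 2 at 10 CPM. The 4 AEC markers summed to 571 and 42.2 CPM, and 8 of 71 Old SEC cells fell in AEC-like clusters. The 4 pericyte markers summed to 272 CPM in old, led by Rgs5 at 202 CPM, and 4.56 CPM in young, with 3 and 0 at 10 CPM. Cluster E6 held 12 of 71 old and 2 of 70 young cells. Their part in the SEC differences was not tested. The medians were -0.16 for the 18 members and 0.05 for all genes.

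**Figure D3:**
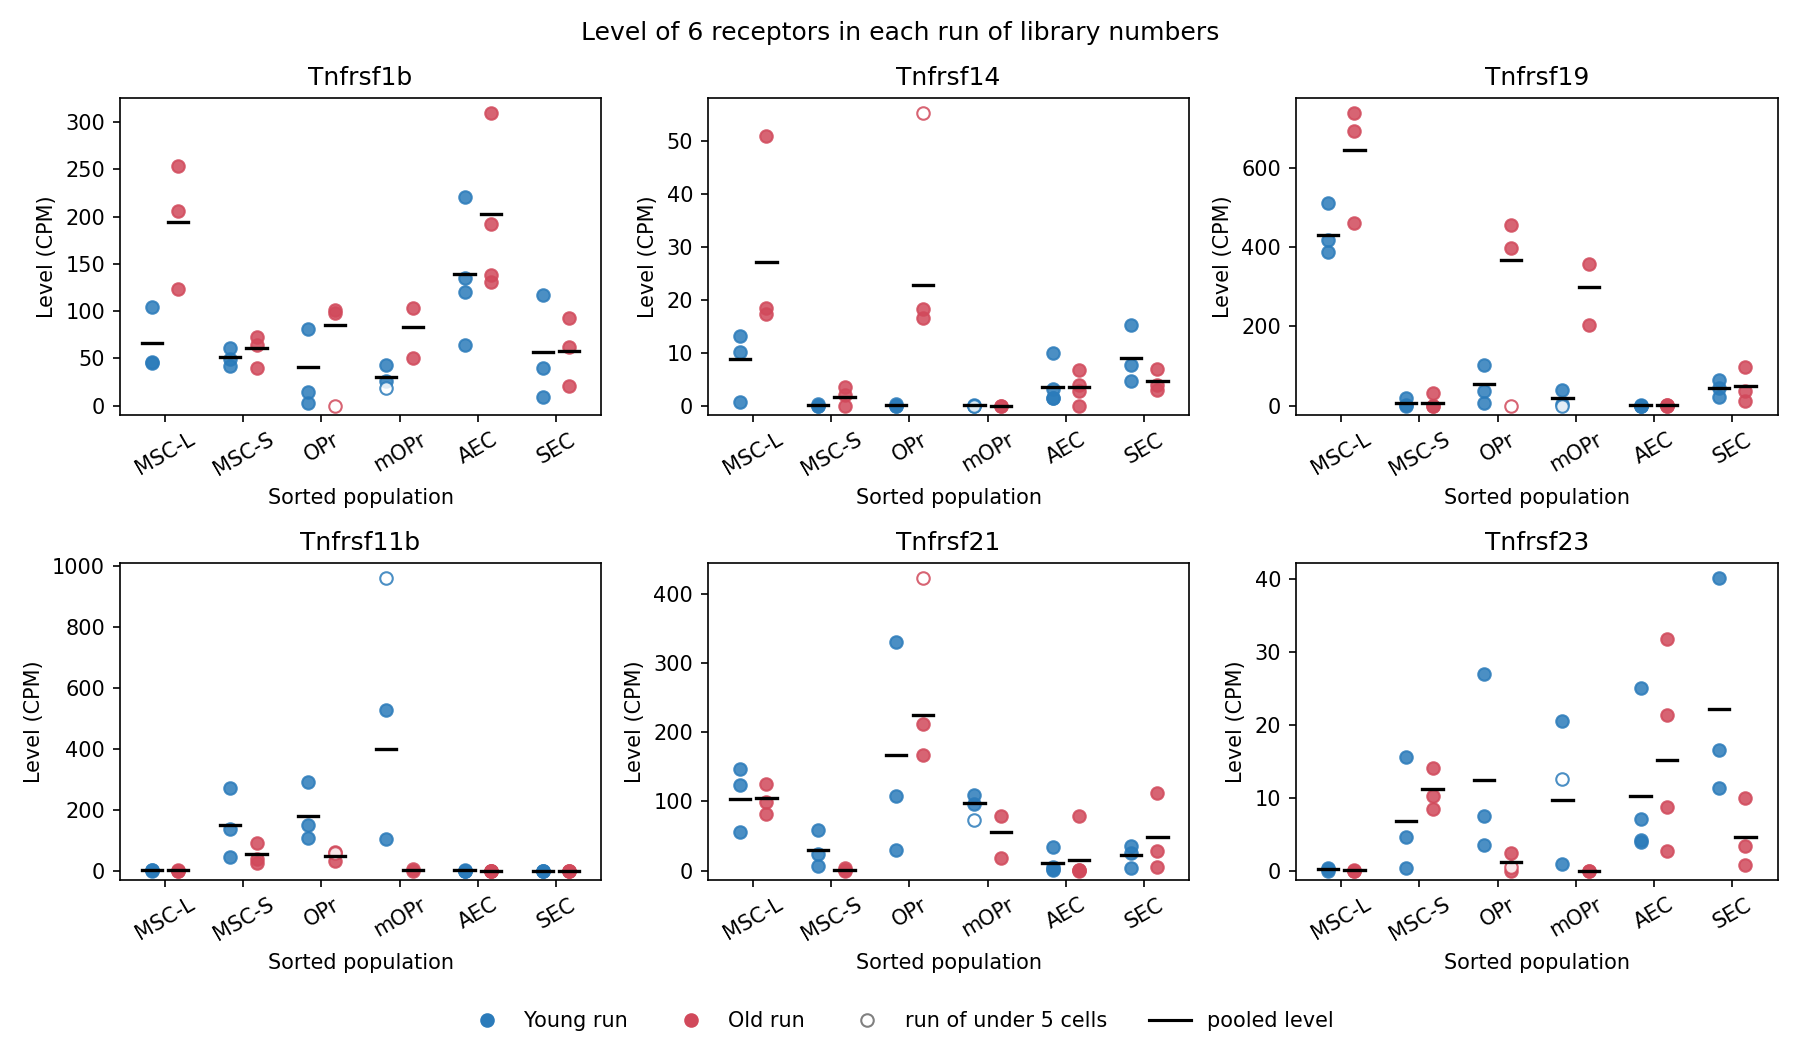
Levels of Tnfrsf1b, Tnfrsf14, Tnfrsf19, Tnfrsf11b, Tnfrsf21 and Tnfrsf23 in each run of library numbers, young beside old. Runs of fewer than 5 cells did not enter the call.

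The superfamily genes with other symbols include both scarce and abundant ligands. The ectodysplasin gene Eda was at 113 CPM in Young MSC-L and 30.2 CPM in Young OPr. Tnf peaked at 4.99 CPM (Old AEC) and Lta at 2.50 CPM (Young MSC-L), and Fasl had no count. Of this list of 15, those called higher were the receptor Relt in MSC-L (1 of 5 tested, with 1 young count, beside 4.52% of all genes), Eda in MSC-S (1 of 5, beside 2.1%), Eda and its receptor Edar in OPr (2 of 6, beside 12.4%), Edar in mOPr (1 of 5, beside 15.4%) and the death receptor Fas in SEC (1 of 7, beside 4.51%). The log2 ratios were 2.91 and 1.40 for Eda in MSC-S and OPr, 2.12 for Edar in OPr and 2.07 for Fas. Edar had no count in Young mOPr and was at least 70.5-fold higher in Old mOPr. Fas was at 9.99 CPM in Young SEC and 45.2 CPM in Old SEC. Cd40, the receptor of T cell help, was the 1 called lower, in AEC, from 20.2 to 4.19 CPM (1 of 8, beside 1.11%). With so few tested, nothing is claimed for the list.

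Adaptors and effectors were measured almost in full, 23 or 24 of 24 in each population. In MSC-L, the adaptor Traf1 rose with a log2 of 3.83, from 0.789 CPM in young cells, and the kinase Ripk1 with 1.41. These were 2 of 23 (4.52% of all genes), and none fell (3.53%). The part of the megakaryocyte and erythroid transcripts of Old MSC-L in these rises was not tested. In OPr, Traf1 (1.17) and Traf2 (1.21) rose, 2 of 24, and caspase-8, Casp8, fell (-2.55), 1 of 24, both smaller shares than the 12.4% and 9.72% of all genes. In mOPr, the death-domain adaptor Tradd (2.18), the kinase Map3k14 (2.90) of the alternative NF-κB route and Tnip1 (1.18), a brake on NF-κB, rose, 3 of 23 and again a smaller share than the 15.4% of all genes, and none fell (12.6%). In MSC-S, Traf4 (1.69) and Ikbkb (1.08) rose, 2 of 24 (2.1%), and Traf3 (-1.15), which restrains Map3k14, fell, 1 of 24 (2.57%). None of the 24 was called in AEC or SEC. The alternative settings were run on the members alone, and not on these genes or the list before them.

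Promoters were read for the receptors that rose together in Old MSC-L and Old OPr, Tnfrsf1b and Tnfrsf14. RefSeq windows of 300 bases on GRCm38.p6 exist for 24 of the 32 members, 28 windows in all. Searched on both strands were the κB motif, AP-1 (TGANTCA), RUNX (TGTGGT), the GC box (GGGCGG) and ETS (CCGGAA). Of 32851 promoters, these are held by 4.51%, 7.81%, 16.8%, 35.7% and 14.9%, and of the 28 member windows by 2, 6, 6, 12 and 4. The Tnfrsf1b window (chr4:145246821-145247120, minus strand) holds GC boxes, read on the opposite strand, at bases 184 to 189 and 194 to 199 and an ETS match at bases 73 to 78, in capitals and without overlap. The Tnfrsf14 window (chr4:154928028-154928327, minus strand) holds none of the 5, so it has no capitals. A match is a description and not a bound site.
Tnfrsf1b: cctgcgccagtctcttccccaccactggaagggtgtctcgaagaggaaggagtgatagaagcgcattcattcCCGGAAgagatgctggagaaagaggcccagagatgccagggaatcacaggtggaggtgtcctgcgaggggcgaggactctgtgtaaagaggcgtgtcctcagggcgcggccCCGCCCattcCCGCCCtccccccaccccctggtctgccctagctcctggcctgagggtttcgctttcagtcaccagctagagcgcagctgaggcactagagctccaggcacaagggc
Tnfrsf14: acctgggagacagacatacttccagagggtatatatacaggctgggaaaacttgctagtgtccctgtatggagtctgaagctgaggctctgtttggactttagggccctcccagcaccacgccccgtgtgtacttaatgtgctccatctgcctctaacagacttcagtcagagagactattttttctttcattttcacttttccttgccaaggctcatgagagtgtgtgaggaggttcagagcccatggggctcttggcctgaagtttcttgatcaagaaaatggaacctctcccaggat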

How the data were processed

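The deposited counts are gene counts per cell from plate libraries amplified for 21 cycles. Per the labels, the authors aligned reads with GSNAP 2015-09-29 to GRCm38.p4 and counted, ignoring strand, with HTSeq (version not given), which left 46078 entries, 270 with a repeated symbol and 37 mitochondrial. The study left out cells under 100000 reads or over 20% mitochondrial. In the table, 7 cells have fewer counts and the highest mitochondrial share is 14.9%. Reads themselves are not in the files. No 2 cells are identical. Cells with at least 1000 CPM of Il1b, 8 Old OPr cells, were dropped. No doublet caller was run. Cells of E1, which the study calls doublets, were left out in an alternative.

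Counts were summed by group, run, range and cluster and divided by nuclear counts, with Poisson and Clopper-Pearson intervals. Exon lengths and positions came from GENCODE M21. Members at 10 CPM or more in a group, or called, are named with values. Alternatives changed the filter, pseudocount, scaling, depth, cells and runs. Leaving out E1, and leaving out cells with megakaryocyte and erythroid markers, were added after seeing the data. Members and lists were chosen with earlier results of these data known. The code was tested on simulated data. An alternative value was held against the counting interval of the ratio, with the pseudocount added to that interval too. Versions were matplotlib 3.10.9, scipy 1.17.1, pandas 2.3.3 and numpy 2.4.6 under Python 3.11.15.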

Additional observations from a re-analysis of the deposited data

Results flagged for a closer look

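The 8 Old OPr cells dropped for Il1b entered no comparison other than the alternative that keeps them, and 5 members reached 10 CPM in them with an interval above that of the kept Old OPr cells. Tnfrsf1b was at 1822 CPM in them and Tnfrsf1a at 725 CPM. Tnfrsf23 was at 31.5 CPM, Tnfrsf18 at 26.3 CPM and Tnfrsf22 at 14.6 CPM. A single cell held 100% of the Tnfrsf18 counts, 91.03% of those of Tnfrsf22, 52.7% of Tnfrsf23, 50.9% of Tnfrsf1a and 28.3% of Tnfrsf1b. Below 10 CPM, Tnfsf14 (6.16 CPM) and Tnfrsf26 (5.97 CPM) were also above their kept levels. These cells held all 15 hematopoietic markers at 10 CPM, summed 42796 CPM and led by S100a9 at 16118 CPM, and their part in the receptor levels was not tested.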

How the results depend on the processing

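No paired analysis was possible because the labels name no mouse, and the values here are by size, with no test. The cause of each shift was not tested. Members called higher in old MSC-L, 2 as reported, were 1 without cells that had megakaryocyte and erythroid markers (added after seeing the data). In range 1 alone 0 were called higher and 1, Tnfsf11, was called lower. In MSC-S, with 0 higher and 1 lower, range 1 alone gave 1 higher and 1 lower, which was Tnfrsf12a, while Tnfrsf21 (-1.88) had too few counts there, and range 2 alone gave 3 lower. In OPr, with 4 and 4, higher calls were 2 with size factors, 2 without the top cell and 2 in range 1 alone. Without the top cell, 1 of the 2 was Tnfsf11, which is not among the reported calls, and 5 were lower. Lower calls were 1 when thinned and 2 in OPr-like cells. In mOPr, with 3 and 3, higher calls were 5 with no filter and lower calls 1 without the top cell. AEC, with none, gave 3 higher and 2 lower in range 1 alone, 1 and 2 in range 2 and 5 and 2 in range 3, by fold alone where an age has 1 run. SEC, with 1 and 1, gave 2 lower with a pseudocount of 0.1 CPM and 0 higher when thinned (Tnfrsf4 at a log2 of 1.96). In SEC-like cells it gave 0 lower (Tnfrsf23 at -1.98) and 1 higher, which was Tnfrsf25 and not Tnfrsf4 (2.84). Without the top cell it gave 0 higher and 2 lower. Leaving out each run in turn gave, for higher and lower calls, 1 to 3 and 0 to 1 in MSC-L, 0 to 1 and 1 to 2 in MSC-S, 2 to 5 and 3 to 6 in OPr, 2 to 4 and 1 to 5 in mOPr, 0 and 0 in AEC, and 0 to 2 and 1 to 4 in SEC. Members at 10 CPM in Young AEC were 7 instead of 12 with range 3 only, and in Young MSC-S 10 instead of 6 at 5 CPM. Among OPr-like cells, log2 ratios turned for Tnfrsf1a in OPr (-0.57) and for Tnfrsf19 (-1.09) and Tnfrsf1b (-2.49) in mOPr. For Tnfrsf19, a guide gene of the clusters, the turn is not independent of them. The value for Tnfrsf10b in mOPr also changed sign (0.59), but from 0 and 3 counts, which give no direction. In that mOPr setting no young run has 5 such cells and no count of calls exists. Of the log2 ratios of named members over all settings, 657 stayed inside the counting interval, 659 moved outside it and 4, all of called members, are the sign changes just given. Members not called changed sign in 138 further settings, which are counted among the 657 and 659. Part of the 657 come from settings that left the cells of a population as they were, where no value could move.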
